A study of Homo sapiens with 4 samples.

Results

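The transforming growth factor beta (TGF-beta) pathway was examined through 10 genes, namely the ligands TGFB1, TGFB2 and TGFB3, the receptors TGFBR1, TGFBR2 and TGFBR3, and the signal transducers SMAD2, SMAD3, SMAD4 and SMAD7. The genes were found by their symbol in the deposited expression table, which holds 57815 genes, and each symbol matched 1 gene. RNA-Seq had been carried out in 2 untreated human breast cancer cell lines with 2 libraries each. MDA-MB-231 is a triple-negative line, lacking the oestrogen, progesterone and HER2 receptors, and LM2-4175 (LM2 below) was derived from it and spreads to the lung. Both lines grew in DMEM medium with foetal bovine serum without treatment. Because LM2 is a single derived line, the comparison describes this line against its parent.

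Cells secrete TGF-beta ligands in a latent form that must be released before it can bind. The freed ligand binds the type II receptor TGFBR2, which phosphorylates the type I receptor TGFBR1, while TGFBR3 (betaglycan) presents the ligand, TGFB2 above all, to the signalling receptors. TGFBR1 then phosphorylates SMAD2 and SMAD3, which enter the nucleus with the shared partner SMAD4, and SMAD7 is an inhibitor that the pathway itself induces. In breast cancer the pathway restrains growth of early lesions and favours invasion and metastasis of later ones.

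Of the 10 genes, TGFBR2 was higher in the lung-metastatic line and SMAD7 was lower, and the other 8 could not be separated between the lines by the authors' bounds. TGFBR2 stood at 47.61 FPKM in MDA-MB-231 and 98.34 FPKM in LM2, a ratio of 2.07. SMAD7 stood at 8.298 FPKM in MDA-MB-231 and 3.568 FPKM in LM2, a ratio of 0.43, and was not called relative to the median of its chromosome. FPKM counts fragments relative to transcript length and library size, so it is a level per length and can be compared between genes. A gene is said to be called, or to have risen or fallen, where its level on the FPKM + 1 scale differed by at least 1.5-fold and the authors' lower and upper bounds of the lines did not overlap. The table holds 1 value per gene and cell line, so no difference has a replicate check and no p-value was computed. In bulk RNA, fewer cells with a transcript and less of it per cell cannot be told apart.

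By that rule 2 of the 10 genes (20%) were called, beside 9.27% of the 13911 genes tested. The 10 genes were chosen with earlier results of these data known. The 1 gene that rose compares with 4.67% of all genes tested called higher, and the 1 gene that fell with 4.61% called lower. By the fold alone on the FPKM + 1 scale 5 of the 10 (50%) passed, beside 22.1% of all genes tested. Of those 5, 3 (TGFB1, TGFB2 and SMAD4) had overlapping bounds. FPKM was lower in LM2 for 6 of the 10 genes and for 54.5% of all genes tested. The median log2 fold change of the 10 genes was -0.40, beside -0.04 over all genes tested.

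**Figure D1:**
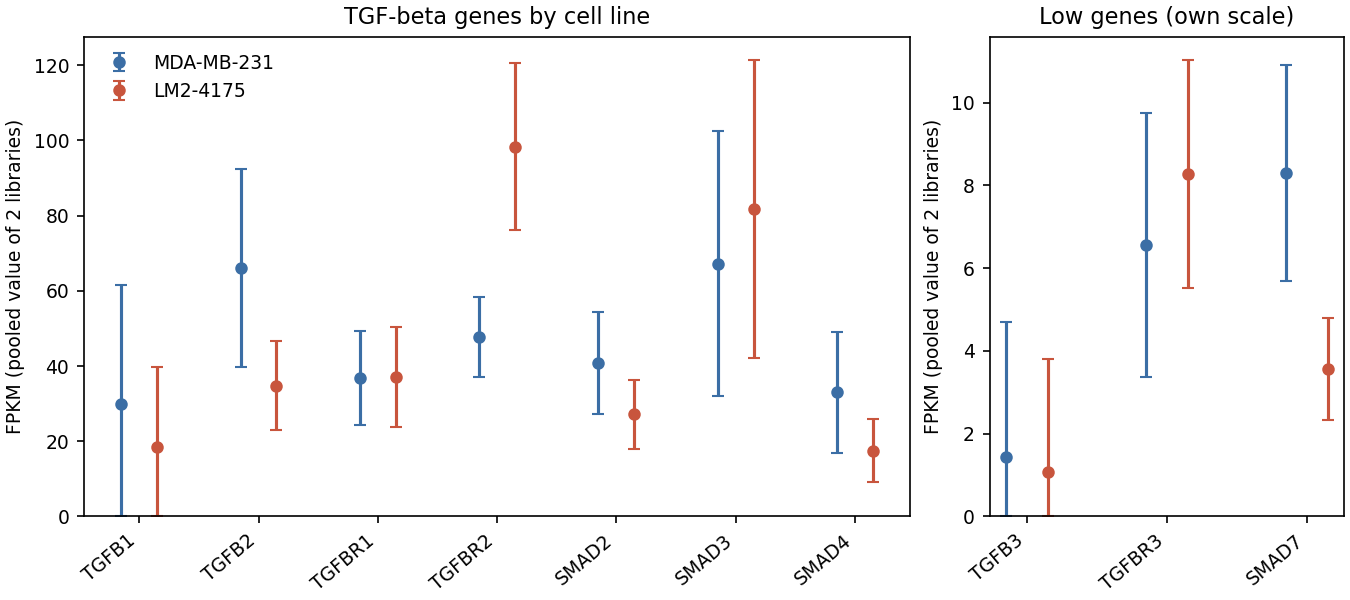
FPKM of the 10 genes in MDA-MB-231 (blue) and LM2-4175 (red), with bars from the authors' lower to upper bound; the right panel has its own scale. The bars of TGFBR2 and SMAD7 do not meet, whereas those of the other 8 genes overlap, and the bars of TGFB1 and TGFB3 begin at 0.

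The sequences that identify the measured transcripts are shown first for the 4 genes for which the study designed PCR primers, since these mark coding exons of each transcript. Each primer is given 5′ to 3′, and capitals mark the bases that lie in the downstream exon where a primer crosses an exon junction. Each pair was matched by exact sequence to GENCODE 44 transcripts on GRCh37, the same assembly as hg19.
SMAD2 forward: ccgacacaccgagatcctaac
SMAD2 reverse: GAGGTGGCGTTTctggaatataa
SMAD3 forward: tggacgcagGTTCTCCAAAC
SMAD3 reverse: ccggctcgcagtaggtaac
SMAD4 forward: ctcatgtgatctatgcccgtc
SMAD4 reverse: aggtgatacaactcgttcgtagt
TGFB2 forward: cagcacactcgatatggacca
TGFB2 reverse: cctcgggctcaggatagtct

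The SMAD2 primers span chr18:45391493-45394806 on the minus strand, from exon 5 to exon 6 of the canonical transcript, and their product of 125 bases is coding. The SMAD3 primers span chr15:67459183-67473608 on the plus strand, from exon 4 to exon 6, with a coding product of 90 bases. Both of these products cross introns. The SMAD4 primers lie within coding exon 3 at chr18:48575078-48575223 on the plus strand, and 1 other annotated gene, a readthrough transcript on the same strand, holds both of them. The TGFB2 primers lie within coding exon 1 at chr1:218520115-218520227 on the plus strand. The PCR measurements themselves are not used here.

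The promoters of the called receptor, the called inhibitor and the ligand with the highest value, which was not called, are shown next. Each window runs from 250 bases before to 10 bases after the annotated gene start (RefSeq, GRCh38.p14, placed on GRCh37 by exact match) and is printed along the strand of its gene. Capitals mark a match to a searched motif.
TGFBR2, chr3:30647843-30648102, plus strand: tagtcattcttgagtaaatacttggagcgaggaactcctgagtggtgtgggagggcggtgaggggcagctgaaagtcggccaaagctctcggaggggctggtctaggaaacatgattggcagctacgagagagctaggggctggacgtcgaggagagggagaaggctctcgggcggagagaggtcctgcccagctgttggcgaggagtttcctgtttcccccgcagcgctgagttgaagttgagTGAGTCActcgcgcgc
SMAD7, chr18:46477326-46477585, minus strand: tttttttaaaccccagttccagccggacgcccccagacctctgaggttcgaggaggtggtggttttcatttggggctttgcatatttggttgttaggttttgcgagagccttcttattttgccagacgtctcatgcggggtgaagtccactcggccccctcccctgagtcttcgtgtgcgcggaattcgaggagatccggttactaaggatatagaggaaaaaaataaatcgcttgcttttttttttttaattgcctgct
TGFB2, chr1:218518428-218518687, plus strand: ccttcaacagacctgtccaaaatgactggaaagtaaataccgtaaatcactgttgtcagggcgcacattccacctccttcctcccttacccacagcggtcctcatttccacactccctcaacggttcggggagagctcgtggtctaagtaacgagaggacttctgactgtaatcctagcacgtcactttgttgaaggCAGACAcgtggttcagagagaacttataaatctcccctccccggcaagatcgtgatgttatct

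The motifs searched on both strands, over the whole windows that reach 50 bases past the start, were GTCTAGAC (the palindromic SMAD box), CAGACA (the CAGA box, also bound by SMADs) and TGAGTCA (the AP-1 site, bound by JUN and FOS proteins). No motif contains another. TGFBR2 held 1 AP-1 site, which begins 6 bases before the annotated start, and 4.95% of 35116 RefSeq promoter windows hold it. TGFB2 held 1 CAGA box, which begins 53 bases before the start, and 16.9% of the windows hold it. The SMAD7 window held none of the 3, and 0.202% of all windows hold the palindromic box. This absence holds for the searched window, chr18:46477286-46477585, only. In the deposited data the SMAD7 locus begins at 46477081, outside that window, so the bases next to that start were not searched. The TGFB2 locus likewise begins at 218519577, outside its searched window of chr1:218518428-218518727. The TGFBR2 locus, shared with AC096921.2, begins at 30647994, so the AP-1 site lies inside that locus and not before its start. A motif match is a description of the letters and no evidence of binding.

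Among the ligands, TGFB2 had the highest value in both lines, with bounds that overlapped those of TGFB1. TGFB2 (ENSG00000092969; chr1:218518678-218617961, plus strand) was at 65.96 FPKM in the parent line, with bounds of 39.62 and 92.3, and at 34.78 FPKM in LM2, with bounds of 22.96 and 46.59. The level in LM2 was 0.527 of that in MDA-MB-231, a log2 fold change of -0.90, but the bounds overlapped by 6.97 FPKM and the gene was not called. The log2 fold change lay at percentile 5.04 of all genes tested. Exons of other genes cover 34.2% of the exon bases of TGFB2. Of these, TGFB2-OT1 on the same strand covers 22.7% and TGFB2-AS1 on the opposite strand 11.6%. TGFB2-OT1 lies on the same strand, so strand could not separate its reads from those of TGFB2 in the shared bases. Whether strand was used in counting is not given in the sources used here, so reads of TGFB2-AS1 may not be separable either. In the deposited data the TGFB2 locus is shared with 0 other genes.

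TGFB1, the ligand best known in tumours, had the less certain values. TGFB1 (ENSG00000105329; chr19:41807492-41859827, minus strand) was at 29.84 FPKM in MDA-MB-231 and 18.5 FPKM in LM2. That is a ratio of 0.62, or -0.66 as a log2 fold change. Its bounds ran from 0 to 61.48 FPKM in MDA-MB-231 and from 0 to 39.71 FPKM in LM2. The distance from the FPKM to the upper bound came to 106% of the FPKM in the parent line and 115% in LM2, whereas the median over all genes tested was 38.6% and 38.1%. The table places TGFB1 in a locus of 162510 bases that it shares with 9 other genes, while the gene itself spans 52336 bases, and 6.59% of its exon bases overlap HNRNPUL1 on the opposite strand.

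TGFB3 was close to the floor of what was tested. TGFB3 (ENSG00000119699; chr14:76424440-76449354, minus strand) was at 1.44 FPKM in the parent line, with bounds of 0 and 4.709, and at 1.081 FPKM in LM2, with bounds of 0 and 3.807. Its locus in the table, 509698 bases, is shared with 11 other genes. A difference in TGFB3 was not detectable within these bounds. The summed level of the 3 ligands was 97.25 FPKM in MDA-MB-231 and 54.36 FPKM in LM2. TGFB2 made up 67.8% of that sum in the parent line and 64% in LM2, TGFB1 made up 30.7% and 34%, and TGFB3 1.48% and 1.99%. The FPKM of TGFB2 was 2.21 times that of TGFB1 in MDA-MB-231 and 1.88 times in LM2, with no upper limit to either ratio because the lower bound of TGFB1 is 0.

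Among the receptors the type II receptor rose, and the values of the type I receptor were nearly equal in both lines. TGFBR2 (ENSG00000163513; chr3:30648093-30735634, plus strand) had bounds of 36.98 and 58.23 FPKM in MDA-MB-231 and of 76.08 and 120.6 FPKM in LM2. The gap between these bounds was 17.9 FPKM, and the log2 fold change of 1.03 lay at percentile 95.8 of all genes tested. No exon of another annotated gene overlaps TGFBR2. The distance from the FPKM of TGFBR2 to the upper bound came to 22.3% in the parent line and 22.6% in LM2, the narrowest of the 10 genes in each line.

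TGFBR1 (ENSG00000106799; chr9:101866320-101916474, plus strand), the kinase that phosphorylates SMAD2 and SMAD3, was at 36.84 FPKM (bounds 24.25 to 49.43) in the parent line and at 37.08 FPKM (bounds 23.68 to 50.48) in LM2, and its log2 fold change was 0.01. Its bounds leave room for a difference in either direction. The co-receptor TGFBR3 (ENSG00000069702; chr1:92145900-92371892, minus strand) was at 6.551 FPKM (bounds 3.361 to 9.74) in the parent line and at 8.287 FPKM (bounds 5.531 to 11.04) in LM2, and its log2 fold change was 0.30, and was not called.

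The balance of the receptors therefore differed in value between the lines. The FPKM of TGFBR2 was 1.29 times that of TGFBR1 in MDA-MB-231 and 2.65 times in LM2. Taking the bounds at their extremes, the ratio lay between 0.748 and 2.4 in MDA-MB-231 and between 1.51 and 5.09 in LM2, so the ranges overlapped. TGFBR2 made up 52.3% of the summed receptor level of 91 FPKM in MDA-MB-231 and 68.4% of 143.7 FPKM in LM2. The share of TGFBR1 was 40.5% and 25.8%, and that of TGFBR3 was 7.2% and 5.77%.

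Among the SMADs, the inhibitor SMAD7 fell, SMAD4 and SMAD2 had lower values in LM2 with overlapping bounds, and SMAD3 had a higher value with overlapping bounds. SMAD7 (ENSG00000101665; chr18:46446223-46477335, minus strand) had bounds of 5.692 and 10.9 FPKM in MDA-MB-231 and of 2.333 and 4.803 FPKM in LM2. The gap between the bounds was 0.889 FPKM, and the log2 fold change of -1.03 lay at percentile 3.78 of all genes tested. Relative to the median of its chromosome, an alternative chosen after seeing the data, SMAD7 was at -0.62 and was not called. No exon of another annotated gene overlaps SMAD7. The related inhibitor SMAD6, which acts mainly on the BMP branch, was at 0.9257 FPKM in MDA-MB-231 and 0.5166 FPKM in LM2 and was not called.

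SMAD4 (ENSG00000141646; chr18:48554898-48611415, plus strand), the partner shared by the TGF-beta and BMP branches, was at 33 FPKM (bounds 16.98 to 49.03) in the parent line and at 17.47 FPKM (bounds 9.035 to 25.91) in LM2. Its ratio of 0.529 and log2 fold change of -0.88 were close to those of TGFB2, and its bounds overlapped by 8.94 FPKM. Its locus in the table is shared with 2 other genes, ELAC1 and RP11-729L2.2, and 4.93% of its exon bases overlap the readthrough gene named with its primers. SMAD2 (ENSG00000175387; chr18:45335328-45457517, minus strand) was at 40.8 FPKM (bounds 27.14 to 54.46) in the parent line and at 27.13 FPKM (bounds 18.03 to 36.24) in LM2. Its difference on the FPKM + 1 scale, 1.49-fold, ended just under the threshold of 1.5. Without the pseudocount its ratio of 0.665 (log2 fold change -0.59) passes that threshold, but its bounds overlapped by 9.1 FPKM.

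SMAD3 (ENSG00000166949; chr15:67356101-67487511, plus strand), the other receptor-activated SMAD of this branch, was at 67.22 FPKM (bounds 31.94 to 102.5) in the parent line and at 81.8 FPKM (bounds 42.14 to 121.5) in LM2, and its log2 fold change was 0.28. A lncRNA on the opposite strand covers 1.82% of its exon bases. SMAD3 made up 45% of the summed level of the 4 SMADs, 149.3 FPKM, in MDA-MB-231 and 62.9% of 130 FPKM in LM2. The other shares were lower in LM2, from 27.3% to 20.9% for SMAD2, from 22.1% to 13.4% for SMAD4 and from 5.56% to 2.75% for SMAD7.

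The SMAD3 level was 1.65 times that of SMAD2 in MDA-MB-231 (0.587 to 3.78 by the extremes of the bounds) and 3.01 times in LM2 (1.16 to 6.74). Against the inhibitor, the SMAD3 level was 8.1 times that of SMAD7 in MDA-MB-231 (2.93 to 18) and 22.9 times in LM2 (8.77 to 52.1). The SMAD4 level was 3.98 times that of SMAD7 in MDA-MB-231 and 4.9 times in LM2. The range from the bounds overlapped between the lines for each of these ratios.

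Ordered by level, MDA-MB-231 expressed SMAD3 most, followed by TGFB2, TGFBR2, SMAD2, TGFBR1, SMAD4, TGFB1, SMAD7, TGFBR3 and TGFB3, and the bounds of every neighbouring pair in this order overlapped. In LM2 the order was TGFBR2, SMAD3, TGFBR1, TGFB2, SMAD2, TGFB1, SMAD4, TGFBR3, SMAD7 and TGFB3, and the bounds of TGFBR3 and SMAD7 were the only neighbouring bounds apart. TGFBR2 was thus in the third place in the parent line and in the first place in LM2, where its bounds overlapped those of SMAD3. Among all genes tested, the level of TGFBR2 was at percentile 82.5 in the parent line and 93.1 in LM2, and that of SMAD7 at percentile 42.1 and 26.

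**Figure D2:**
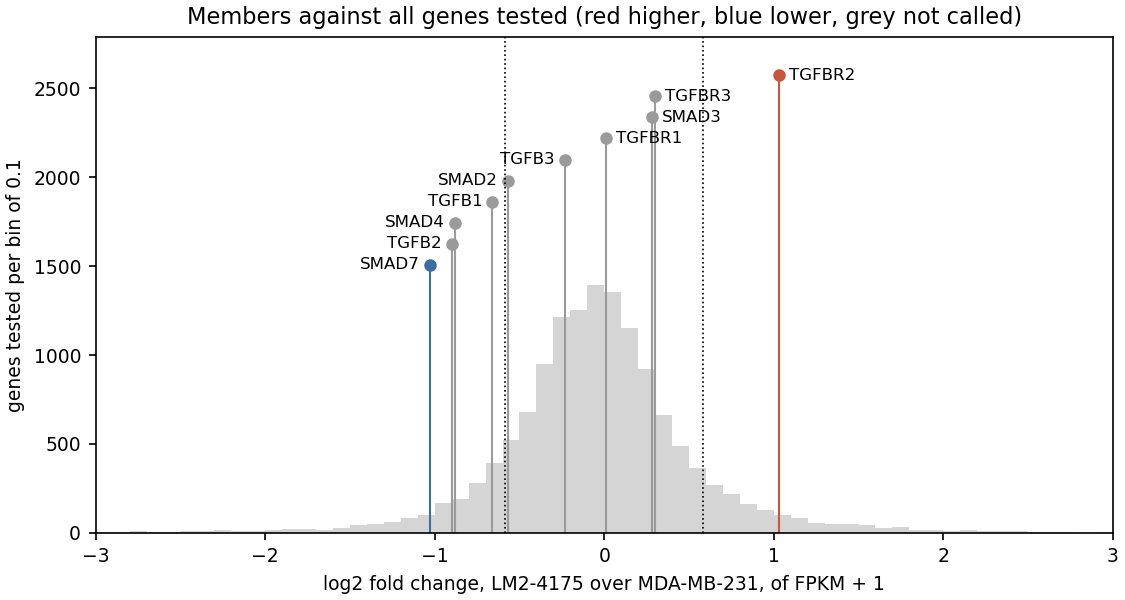
Log2 fold change (LM2-4175 over MDA-MB-231, FPKM + 1) of the 10 genes, drawn as pins of arbitrary height over the histogram of the 13911 genes tested; dotted lines mark 1.5-fold and the axis ends at 3 in each direction. TGFBR2 at 1.03 is the single gene beyond the right line, and SMAD7, TGFB2, SMAD4 and TGFB1 lie beyond the left line.

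Markers expected in a mesenchymal breast cancer line were present, while not all of those expected to be low were low. VIM, which encodes the intermediate filament vimentin, was at 1355 FPKM in MDA-MB-231 and 1768 FPKM in LM2, while the hormone receptor genes ESR1 and PGR were at or below 0.03314 FPKM. ERBB2, which encodes HER2 and was expected to be low or absent, was at 34.95 FPKM in MDA-MB-231 and 22.76 FPKM in LM2. CDH1, also expected to be low, was at 0.8505 and 0.3655 FPKM. Of 7 markers expected in the line all were tested, and KRT8, KRT18 and CAV1 fell while VIM, CD44, MSN and EGFR were not called. EPCAM, an epithelial marker expected to be low, was at 12.26 FPKM in MDA-MB-231 and 4.928 FPKM in LM2 and was called lower. Of the 6 white blood cell markers, CD3E was listed at 0 in both lines, PTPRC was at most 0.07667 FPKM and ITGAM at most 0.01924 FPKM. CD14 (1.172 FPKM in MDA-MB-231 and 1.75 FPKM in LM2) and CD68 (107 and 178.9 FPKM) were not called, and the summed level of the list was 108.3 FPKM in MDA-MB-231 and 180.7 FPKM in LM2. Of the endothelial and fibroblast markers, 5 of 6 were found by symbol, and 4 of these (CDH5, PDGFRA, COL3A1 and DCN) were at most 0.1371 FPKM. The fifth, COL1A1, rose and is described with the induced genes.

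The rest of the pathway was read from 10 lists with 133 genes in all, of which 117 were tested. Of these, 9 rose and 13 fell, so that 18.8% were called, beside 9.27% of all genes tested, and their median log2 fold change was -0.00. The lists were written with earlier results of these data known, so the shares called in them are not independent of these data. The lists overlap in 2 genes, SKIL and PMEPA1. Of the 22 calls, 11 were among the 27 tested genes that TGF-beta is known to induce. The 14 negative regulators, the 10 positive regulators and the 11 genes tested of the non-SMAD kinase list held 0. With 9.27% of all genes tested called, lists of this size could hold no call, so these counts are not read as a difference.

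Of the genes for latency and activation of the ligands, 15 were tested, 0 rose and 2 fell, with a median log2 fold change of 0.15. THBS1, which encodes thrombospondin, an activator of latent TGF-beta, was at 351.6 FPKM (bounds 206.5 to 496.7) in the parent line and at 46.36 FPKM (bounds 30.22 to 62.5) in LM2, so that it fell by 2.90 on the log2 scale. BMP1, a protease that releases latent complexes from the matrix, was at 18.43 FPKM in MDA-MB-231 and 7.516 FPKM in LM2. The integrin chain ITGB6, which activates latent ligand, was at 1.117 FPKM (bounds 0.09973 to 2.135) in the parent line and at 0.03627 FPKM (bounds 0 to 0.2254) in LM2 and was not called. Its relative ITGB5 (log2 fold change -0.39), the latent binding proteins LTBP1 (0.49) and LTBP3 (0.44) and the protease FURIN (0.48), which cleaves the precursors, were not called.

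Of the other receptors 9 were tested, 1 rose and 2 fell, with a median log2 fold change of 0.12. ENG, which encodes the co-receptor endoglin, was at 0.4629 FPKM (bounds 0.06409 to 0.8618) in the parent line and at 12.09 FPKM (bounds 8.959 to 15.22) in LM2, and its log2 fold change was 3.16. The BMP type II receptor BMPR2 was at 14.52 FPKM in MDA-MB-231 and 6.951 FPKM in LM2, so the called type II receptors of the BMP and TGF-beta branches lay on opposite sides. BAMBI, a pseudoreceptor that blocks signalling, was at 5.44 FPKM in MDA-MB-231 and 2.73 FPKM in LM2.

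Of the activin, nodal and GDF ligands and antagonists, 7 were tested, 0 rose and 2 fell, with a median of -0.44. INHBB, an activin subunit, was at 2.766 FPKM in MDA-MB-231 and 1.109 FPKM in LM2, and the activin antagonist FSTL3 at 16.81 and 9.393 FPKM. Of the other SMADs and anchors, 7 were tested, 1 rose and 0 fell, with a median of 0.09. The called gene was SMAD1, a receptor-activated SMAD of the BMP branch, at 2.521 FPKM (bounds 1.475 to 3.568) in the parent line and 7.02 FPKM (4.455 to 9.586) in LM2. Its branch partners SMAD5 and SMAD9 were not called.

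None of the 14 negative regulators tested was called, and their median log2 fold change was -0.07. The member of this list with the largest difference was PPP1R15A, which helps SMAD7 to bring a phosphatase to TGFBR1, at 64.29 FPKM in MDA-MB-231 and 93.27 FPKM in LM2. The ubiquitin ligases SMURF1 (-0.52) and SMURF2 (0.35), which SMAD7 recruits to the receptor, and the corepressors SKI (-0.07) and SKIL (0.03) had log2 fold changes on both sides of 0. None of the 10 positive regulators tested was called (median -0.03), and the largest difference was that of USP11 (-0.56), a deubiquitinase. The non-SMAD kinase list also holds genes that encode no kinase, such as RHOA and TAB1. None of its 11 genes tested was called (median -0.04), the largest difference being that of MAPK8 (0.59), which encodes JNK. Of the 13 nuclear cofactors tested, 1 fell and 0 rose (median -0.07). The called cofactor was CTDP1, a phosphatase gene on chromosome 18, at 5.316 FPKM in MDA-MB-231 and 2.794 FPKM in LM2.

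The genes that TGF-beta is known to induce were called in both directions. Of 27 tested, 7 rose and 4 fell, 40.7% together, and their median log2 fold change was 0.03. COL1A1, a fibrillar collagen, was at 3.163 FPKM (bounds 0.9023 to 5.423) in the parent line and at 30.98 FPKM (bounds 15.49 to 46.47) in LM2, and its log2 fold change was 2.94. IL11, a cytokine linked to bone metastasis, was at 16.19 FPKM (bounds 11.57 to 20.8) in the parent line and at 88.56 FPKM (bounds 66.23 to 110.9) in LM2, and its log2 fold change was 2.38. In the other direction, the adhesion scaffold NEDD9 was at 7.715 FPKM in MDA-MB-231 and 0.6167 FPKM in LM2, and the actin-binding TAGLN was at 122.8 and 25.14 FPKM. The remaining called genes were TNC, PDGFB, SPHK1, PLAUR and CDKN1A, which rose, and FN1 and SNAI1, which fell. CTGF was at 174.2 FPKM in MDA-MB-231 and 146.3 FPKM in LM2 and was not called.

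Of the 6 repressed genes tested, 2 fell and 0 rose, with a median log2 fold change of -0.69. These were the helix-loop-helix inhibitors ID3, at 37.04 FPKM (25.43 to 48.66) in the parent line and 4.463 FPKM (2.992 to 5.934) in LM2, and ID1, at 68.54 FPKM (51.66 to 85.42) and 18.09 FPKM (13.18 to 22.99). Both are also known targets of the BMP branch, in which SMAD1 rose and BMPR2 fell.

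**Figure D3:**
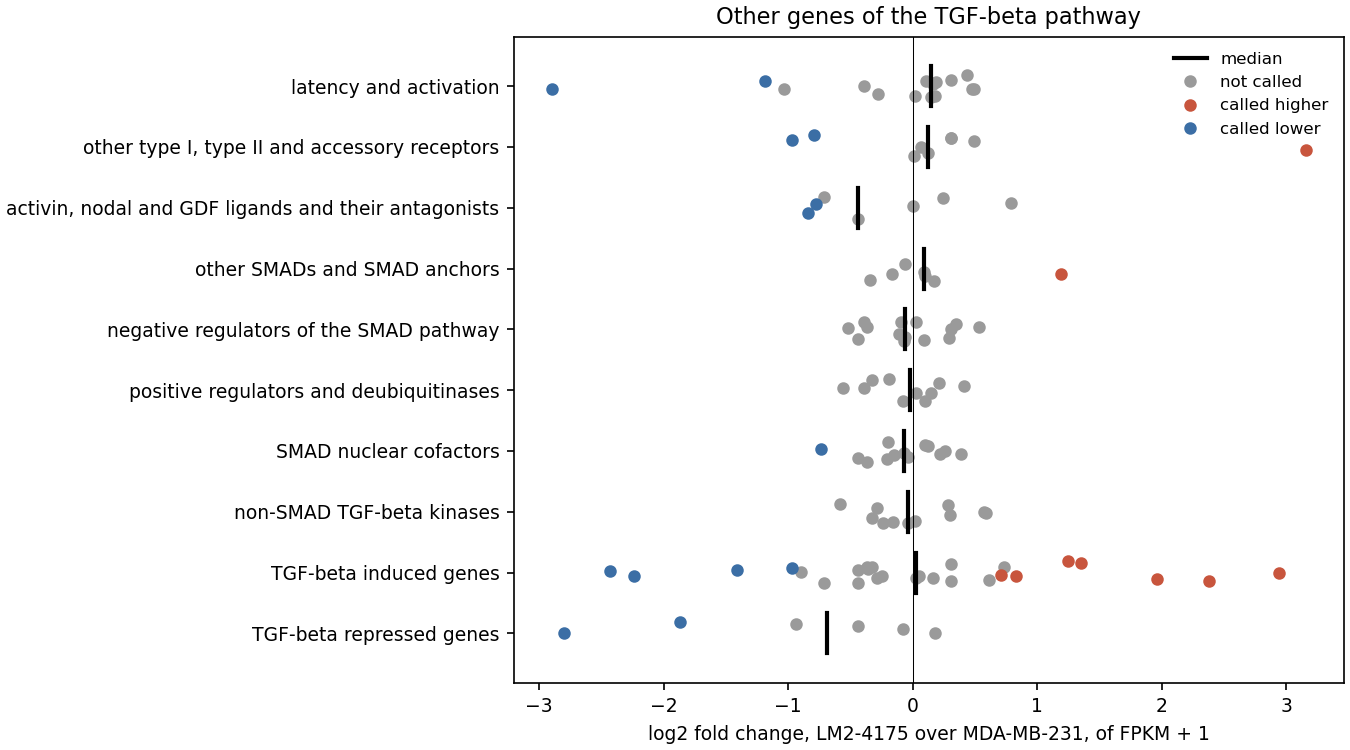
Log2 fold change (LM2-4175 over MDA-MB-231, FPKM + 1) of the tested genes of 10 pathway lists; red and blue points were called higher and lower, grey points were not called, and the black line is the median of the list. The induced genes spread from NEDD9 at -2.43 to COL1A1 at 2.94. The lists of negative regulators, positive regulators and non-SMAD kinases held no call.

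The 3 SMADs with lower values in LM2 are neighbours on chromosome 18, so the genes around each of the 10 were compared. Of the protein-coding genes tested within 3 Mb of SMAD7, 22 of 24 were lower in LM2, 5 of them called, and 0 were called higher. The median log2 fold change of these genes was -0.61. Around SMAD2 19 of 21 were lower (6 called, median -0.67), and around SMAD4 14 of 15 were lower (4 called, median -0.59). The starts of SMAD2 and SMAD4 lie 3.22 Mb apart, so the windows share genes. The window of SMAD7 holds both other SMADs, and those of SMAD2 and SMAD4 hold SMAD7. Of the 13 genes between SMAD2 and SMAD4, 12 were lower and 3 were called lower, with log2 fold changes from -1.41 to 0.74. The nearest tested genes to SMAD7 besides SMAD2 were CTIF (-0.82), DYM (-0.51) and C18orf32 (-0.49), none of them called, while IER3IP1 next to SMAD2 (-0.83) and ME2 next to SMAD4 (-1.20) were called lower.

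Chromosome 18 as a whole had the lowest median log2 fold change of 24 chromosomes, -0.41. Of its 169 protein-coding genes tested, 132 (78.1%) were lower in LM2 and 28 (16.6%) were called lower, beside 4.80% of protein-coding genes called lower over all chromosomes, and 6 were called higher. Relative to the chromosome median, the log2 fold change was -0.62 for SMAD7, -0.48 for SMAD4 and -0.17 for SMAD2. Of the 166 other genes of the chromosome, 13 were below SMAD7, 22 below SMAD4 and 57 below SMAD2. All 4 pathway list genes on chromosome 18 were also lower in LM2. The part of the position in the SMAD values was not tested.

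**Figure D4:**
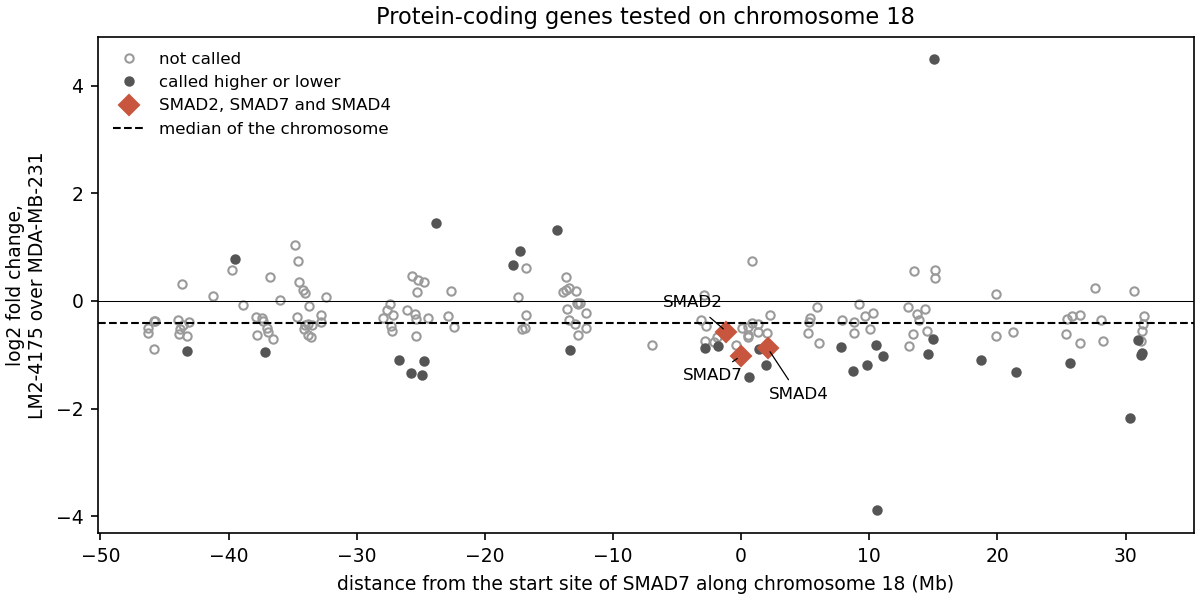
Log2 fold change (LM2-4175 over MDA-MB-231, FPKM + 1) of the 169 protein-coding genes tested on chromosome 18 against the distance in Mb from the start of SMAD7; filled points were called and the dashed line is the chromosome median of -0.41. SMAD2, SMAD7 and SMAD4 (red diamonds) lie below 0 among neighbours that mostly lie below 0 too.

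Within 3 Mb of TGFBR2, 13 of 20 genes were higher in LM2, 1 was called higher and 0 were called lower, and the median log2 fold change was 0.06 against 1.03 for TGFBR2. Within 10 Mb of it 41 of 59 genes were higher, with 5 called higher, 0 called lower and a median of 0.16. The log2 fold changes in that wider window ran from -0.80 to 1.90, a range that holds TGFBR2. The nearest tested neighbours of TGFBR2 were RBMS3 (-0.23) and STT3B (0.03), neither of them called. Within 3 Mb of TGFB2, 5 of 12 genes were lower, 0 were called, and the median was 0.06 against -0.90 for TGFB2. Within 10 Mb of it 47 of 82 genes were lower, with a median of -0.07 and a range from -1.47 to 3.01, which holds TGFB2. Around TGFB1, 78 of 113 genes were lower with a median of -0.23, and around TGFBR1 26 of 35 with a median of -0.14. The medians around SMAD3 (-0.03), TGFB3 (0.01) and TGFBR3 (0.13) were near 0.

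**Figure D5:**
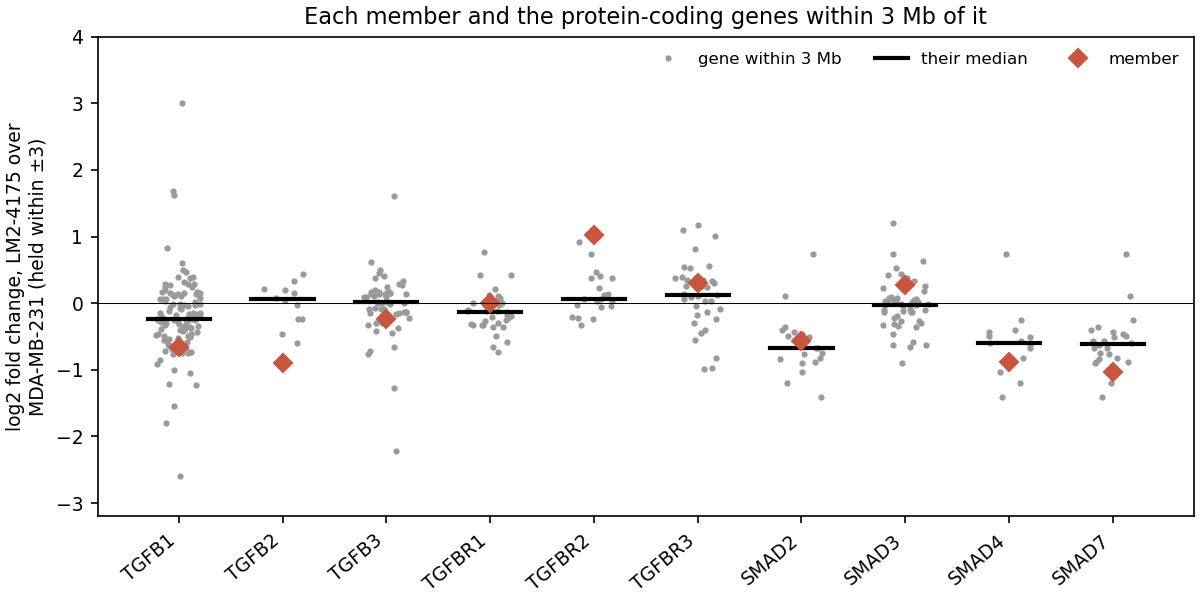
Log2 fold change (LM2-4175 over MDA-MB-231, FPKM + 1) of each of the 10 genes (red diamond) and of the protein-coding genes tested within 3 Mb of it (grey points, black line at their median), held within 3 in each direction. TGFBR2 at 1.03 and TGFB2 at -0.90 stand outside the range of their neighbours (up to 0.92 and down to -0.60), whereas SMAD2, SMAD4 and SMAD7 lie within neighbours whose medians are -0.67, -0.59 and -0.61.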

How the data were processed

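The authors prepared TruSeq libraries (4 in all, 2 per cell line), aligned paired reads to hg19 with TopHat2, and deposited 1 FPKM value per gene and cell line, estimated with Cufflinks over both libraries, with a lower and an upper bound. The scaling of libraries, the use of strand and what the bounds cover are not given in the sources used here. Depth per library cannot be read from the deposited values. The supplement of the paper lists aligned read pairs per library, which were not used here. The bounds stand for precision. Their fold changes and q-values were not used.

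Genes with a status of OK and a mean of at least 0.5 FPKM were tested, with log2(FPKM + 1) and the rule given in the report, using pandas 2.3.3, NumPy 2.4.6, SciPy 1.17.1 and Matplotlib 3.10.9 under Python 3.11.15. The code was tested on simulated data. Positions come from GENCODE 44 on GRCh37, in which 55535 gene IDs were found and 2280 were not. Of the 10 genes, 5 had a RefSeq promoter window at the annotated start.

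The 10 genes and the lists were chosen with earlier results of these data known. Named are the 10 genes, from each list up to 2 called genes per direction with the largest difference (or the largest difference where none was called), the 2 nearest genes on either side, overlapping genes, and further list members chosen after their values were seen. Alternatives covered the pseudocount, the filter, the fold, the bounds, the scaling and the window.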

Additional observations from a re-analysis of the deposited data

How the results depend on the processing

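No paired analysis was possible because the table holds 1 value per cell line, and for the same reason no library could be left out. Of 13 alternatives, TGFBR2 was called higher in all 13 (log2 fold change 0.97 to 1.14) and SMAD7 lower in 12 (-1.22 to -0.98); the exception was centring on the chromosome median, chosen after seeing the data, which put SMAD7 at -0.62 and left 1 of the 10 genes called. Not all of these alternatives could have removed the calls. The fold alone and the bounds alone each drop a condition, and TGFBR2 and SMAD7 had met both. The filters on the mean left the values and bounds of TGFBR2 and SMAD7 unchanged. No gene of the 10 turned its direction. By the fold alone 5 of the 10 were called, with TGFB1 (-0.66), TGFB2 (-0.90) and SMAD4 (-0.88) added, and by the fold with a difference outside the standard errors TGFB2 was added. SMAD2 (-0.59 to -0.17), SMAD3 (0.12 to 0.40), TGFBR1 (0.01 to 0.21), TGFBR3 (0.29 to 0.39) and TGFB3 (-0.41 to -0.19) were called in none; TGFB3 dropped out at a mean of 5 FPKM. Over all genes tested, 1290 were called, against 764 at a mean of at least 5 FPKM, 853 at 2-fold, 2009 by the standard errors and 3074 by the fold alone. Pathway list genes called numbered 22, and 14 at 2-fold. The share of lower genes within 1 Mb was 78.6% around TGFB1, 0% around TGFB2, 100% around SMAD2 and 28.6% around SMAD3, and 36.7% within 10 Mb of SMAD3, against 69%, 41.7%, 90.5% and 54.9% within 3 Mb. Scaling both lines to the same sum of FPKM put TGFBR2 at 1.12 and SMAD7 at -1.02 and gave 735 higher and 547 lower calls, against 649 and 641. The bounds of TGFB1 and TGFB3, which begin at 0, are the widest of the 10 relative to the FPKM.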

Other observations

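After chromosome 18, the lowest medians of the log2 fold change among protein-coding genes tested were those of chromosomes 7 (-0.36, with 406 of 563 genes lower in LM2) and 21 (-0.36, with 89 of 118 lower). None of the 10 genes lies on either.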
